A study of Mus musculus with 6 samples.

Results

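Coactivators and corepressors of nuclear receptors were followed in mouse small intestinal organoids given the thyroid hormone T3. The group is 9 genes, taken by symbol from 27179 genes in the deposited table, and each symbol matched 1 row. They are the corepressor scaffold Ncor1 with its partners Hdac3 and Tbl1xr1, the p160 coactivators Ncoa1, Ncoa2 and Ncoa3, the acetyltransferases Crebbp and Ep300, and the Mediator subunit Med1. The organoids, three-dimensional epithelial cultures grown in Matrigel with Intesticult medium, came from wild-type mice. There were 3 libraries from organoids exposed to T3 at 1e-07 M and 3 from organoids given the vehicle, both for 17 h before RNA was extracted. Whether the replicates were separate cultures or animals is not stated in the labels. The p-values therefore reflect no more than the variation among these 6 libraries, which could be technical.

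Thyroid hormone receptors sit on DNA with and without hormone. Without T3 they hold a corepressor complex in which NCoR1, a large scaffold, carries the histone deacetylase HDAC3 and the WD40 proteins TBL1X and TBLR1 (the product of Tbl1xr1). T3 binding reshapes the receptor surface, so that corepressors leave and p160 coactivators dock through short LXXLL motifs, bringing CBP (Crebbp) and p300 (Ep300), which acetylate histones. The MED1 subunit then links the receptor to the Mediator complex and RNA polymerase II. In the gut, thyroid hormone is best known for remodelling the epithelium at amphibian metamorphosis and at weaning in rodents. The cofactor exchange takes place between proteins, whereas the libraries measure how much transcript of each cofactor the epithelium held.

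T3 was followed by modest and opposite changes within the group. Tbl1xr1, Ncoa1 and Ncoa3 rose by 1.42-fold, 1.24-fold and 1.20-fold, while Hdac3 fell to 0.891 and Ncor1 to 0.877 of the vehicle level. Ncoa2, Med1, Crebbp and Ep300 were not called. Of the 9 genes, all of which passed the filter on low values, 3 were called higher and 2 lower by limma at an adjusted p under 0.05. Across the 13052 genes tested, 44.8% were called, 24% higher and 20.8% lower, so 5 of 9 lies near the background. The split over all genes was 3135 higher and 2716 lower, but 2497 and 3728 with upper-quartile scaling and 2432 and 3855 with equal column totals, while the 3 and 2 calls among the cofactors held under both. The median absolute log2 fold change of the 9 genes was 0.17, beside 0.188 over all genes tested. The T3 and vehicle libraries did not overlap in 5 of the 9 genes, beside 54.9% of all genes tested. In 3 of them T3 was higher and in 2 lower, beside 28.4% and 26.5% of all genes. The authors' deposited table also has 5 of the 9 genes at an adjusted p under 0.05, beside 35.1% of the genes with an adjusted p there.

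The 3 T3 libraries summed to 29510422 to 29974091 normalized reads and the 3 vehicle libraries to 28197080 to 28611883, and the first principal component, with 76.3% of the variance, separated the groups. The 10 intestinal epithelial markers were all detected, with a summed level of 177448 to 188423 normalized reads with T3 and 153143 to 156974 with vehicle, but they did not move together. In 6 of them every T3 library was above every vehicle library, in 1, Lgr5, every T3 library was below, and in 3 the groups overlapped. The enterocyte markers Vil1 and Alpi averaged 26689 and 6558 normalized reads with T3, against 17116 and 2815 with vehicle. The stem cell marker Lgr5 averaged 2073 with T3 and 4506 with vehicle. The Paneth cell marker Lyz1 averaged 8951 with T3 and 10696 with vehicle, and the goblet cell marker Muc2 2357 with T3 and 2668 with vehicle, both with overlapping groups. Apart from Vim and Itgam, no gene of the fibroblast, immune and endothelial lists was above 21 normalized reads in any library, the value of Col1a1 in vehicle replicate 3. The immune list summed to 346 to 356 with T3 and 82 to 113 with vehicle, nearly all of it Itgam, with Adgre1 at 0, and Kdr and Cdh5 of the endothelial list were at 0. The fibroblast list summed to 181 to 258 with T3 and 235 to 311 with vehicle, the endothelial list to 7 to 9 with T3 and 12 with vehicle, and the neural list to 55 to 61 with T3 and 79 to 95 with vehicle. The part of these marker differences in the changes of the cofactors was not tested. In such bulk samples, fewer cells of a type and less RNA per cell cannot be told apart.

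No promoter window was found for the called genes Hdac3 and Ncoa3. The stretches upstream of the start sites of the other called genes, Ncor1, Tbl1xr1 and Ncoa1, are printed below. They are the 250 bases before the RefSeq start that coincides with the first exon base in the deposited table (build GRCm38.p6), printed 5′ to 3′ on the strand of the gene. Capitals mark GGGCGG, the GC box bound by Sp1-type factors, on either strand. Ncor1 is at chr11:62457333-62457582 on the minus strand, Tbl1xr1 at chr3:22076402-22076651 on the plus strand and Ncoa1 at chr12:4477183-4477432 on the minus strand.
Ncor1: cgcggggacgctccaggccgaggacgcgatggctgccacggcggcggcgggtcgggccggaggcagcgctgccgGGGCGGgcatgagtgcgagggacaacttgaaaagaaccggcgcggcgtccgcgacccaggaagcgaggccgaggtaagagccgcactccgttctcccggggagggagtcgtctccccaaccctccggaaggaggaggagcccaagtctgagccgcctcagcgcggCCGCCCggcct
Tbl1xr1: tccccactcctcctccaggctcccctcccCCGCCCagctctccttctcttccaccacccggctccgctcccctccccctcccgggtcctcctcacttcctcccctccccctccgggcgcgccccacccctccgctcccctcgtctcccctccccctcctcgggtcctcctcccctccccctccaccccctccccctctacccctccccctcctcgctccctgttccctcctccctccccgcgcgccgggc
Ncoa1: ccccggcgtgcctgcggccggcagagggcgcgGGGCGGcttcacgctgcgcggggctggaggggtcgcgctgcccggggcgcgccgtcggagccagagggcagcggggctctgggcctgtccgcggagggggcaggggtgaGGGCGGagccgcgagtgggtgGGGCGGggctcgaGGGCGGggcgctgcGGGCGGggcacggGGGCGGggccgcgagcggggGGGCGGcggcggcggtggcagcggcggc
The GC box occurred 2 times upstream of Ncor1, 1 time upstream of Tbl1xr1 and 7 times upstream of Ncoa1. It occurs in 32.7% of the 32851 RefSeq windows of this length. GC content was 73.6%, 76% and 85.6% in the order printed, beside a median of 52.4% over all windows. Ncor1 had 2 windows, of which 1 is printed. In the uncalled genes Med1, Crebbp and Ep300 the GC box occurred 1, 2 and 1 times, and GC content was 68%, 84% and 73.2%. These features were thus not particular to the called genes. Of the 9 genes, 6 had a window, and none of the 6 windows held AGGTCA, the core half-site of thyroid hormone receptor binding, on either strand, a motif found in 14% of all windows. TATAAA, the TATA box core, was also not found in these 6 windows and is present in 12.4% of all. The 6 windows belong to Ncor1, Tbl1xr1, Ncoa1, Med1, Crebbp and Ep300, and the RefSeq start of Med1 lies 387 bases from the first exon base in the deposited table.

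**Figure D1:**
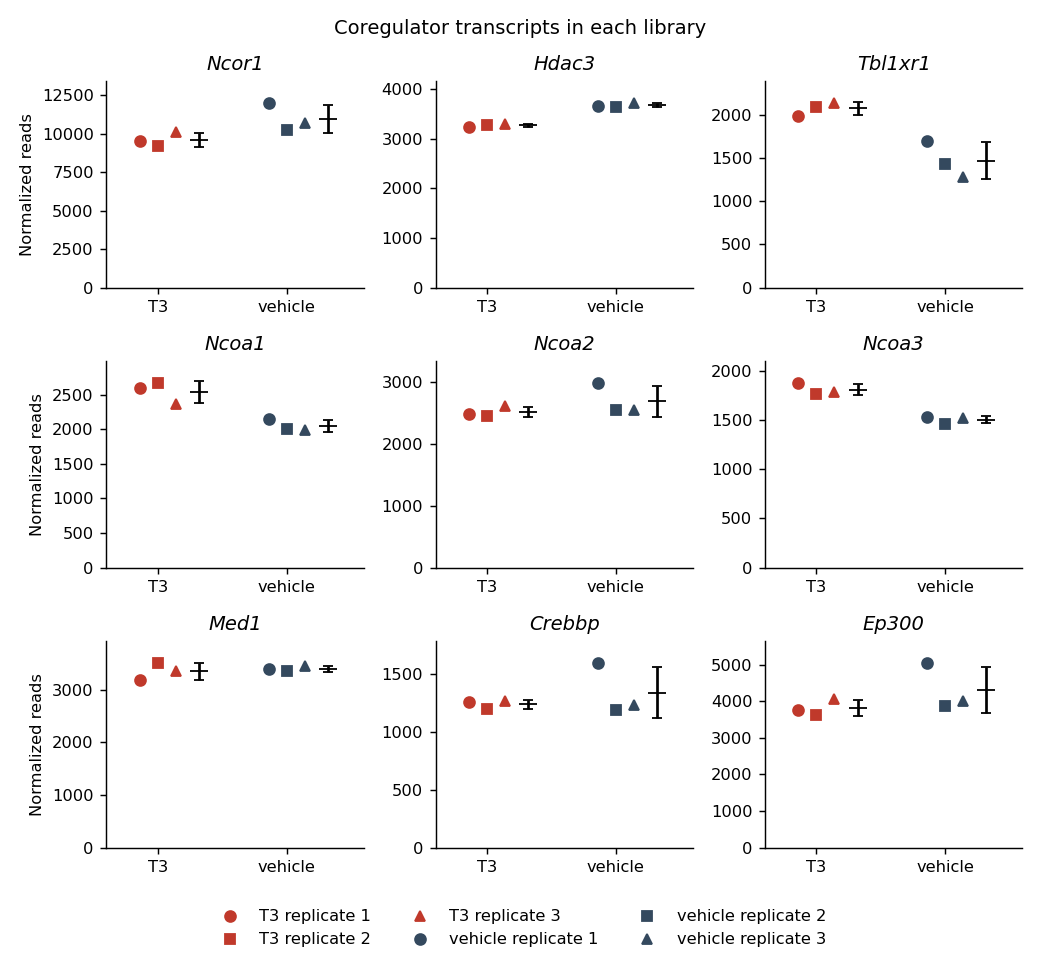
Normalized reads of the 9 cofactor genes in each library, T3 left and vehicle right, with one symbol per replicate and the mean ± SD (n = 3) beside them in black. The groups are apart in Ncor1, Hdac3, Tbl1xr1, Ncoa1 and Ncoa3, and vehicle replicate 1 is the highest point in Ncor1, Ncoa2, Crebbp and Ep300.

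The corepressor genes did not move as one. Ncor1 (gene ID 20185, chromosome 11, 62316426 to 62457332, minus strand, 47 exons) had 9510, 9211 and 10103 normalized reads in the T3 libraries, against 11973, 10222 and 10710 in the vehicle libraries. Every T3 library was below every vehicle library, although only a narrow gap separated T3 replicate 3 from vehicle replicate 2. The log2 fold change was -0.19 ± 0.06 SE (limma, adjusted p = 0.0293). The call of Ncor1 was lost without T3 replicate 1 (adjusted p = 0.0916), T3 replicate 2 (0.102), vehicle replicate 1 (0.0753) or vehicle replicate 3 (0.0542), and without vehicle replicate 1 the log2 fold change was -0.12. Over its 18 alternatives the adjusted p ran from 0.00581 to 0.102. Its exons share 16 of 11144 bases with Ttc19 on the opposite strand, and reads there cannot be told apart without the strand setting of the counting.

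Hdac3 encodes the deacetylase that NCoR1 activates, which in mouse intestinal epithelium is needed for Paneth cells and barrier function (gene ID 15183, chromosome 18, 37936971 to 37954988, minus strand, 15 exons). It had 3248, 3277 and 3311 normalized reads with T3, against 3672, 3646 and 3722 with vehicle. The groups were well apart, and the coefficient of variation within a group was 0.962% with T3 and 1.05% with vehicle, the tightest of the 9 genes in both groups. Hdac3 had a log2 fold change of -0.17 ± 0.03 SE (limma, adjusted p = 0.00363). A change of this size is below the median over all genes tested, and it was called under each of the 18 alternatives run for it, with adjusted p-values of 0.000553 to 0.0225.

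Tbl1xr1, which encodes TBLR1, a WD40 protein that recruits the ubiquitin machinery for corepressor exchange (gene ID 81004, chromosome 3, 22076652 to 22216594, plus strand, 16 exons), went the other way. It had 1995, 2100 and 2139 normalized reads with T3, against 1701, 1434 and 1280 with vehicle. All T3 libraries were above all vehicle libraries, and the vehicle libraries were more scattered. Its log2 fold change was 0.51 ± 0.09 SE (limma, adjusted p = 0.00127), a size exceeded in absolute value by 17.8% of the genes tested. It was the largest change of the 9 genes. Its X-linked paralog Tbl1x, which is not one of the 9, had 2181, 2214 and 2203 normalized reads with T3, against 2628, 2506 and 2507 with vehicle, and fell to 0.864 of the vehicle level (limma, adjusted p = 0.00177).

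The ratio of these paralogs is read within each library and so does not depend on the scaling between libraries. The log2 ratio of Tbl1xr1 to Tbl1x was -0.13, -0.08 and -0.04 in the T3 libraries, against -0.63, -0.80 and -0.97 in the vehicle libraries. The ratio was 1.64-fold higher with T3. Its groups did not overlap, which follows from the opposite changes of the single genes, each without overlap, and is no separate result. The exact permutation test, two-sided, gave p = 0.1, the smallest that 3 against 3 libraries allow, and 0.2 after adjustment over 6 pairs, so no ratio could pass 0.05. Per kb of exon, Tbl1xr1 made up 21.1% of the summed transcript level of both genes with T3 and 14.1% with vehicle. These shares rest on the annotated exon lengths, 8127 bases for Tbl1xr1 and 2302 for Tbl1x. Before division by length the means with T3 were 2078 and 2199 normalized reads. The sum of both genes was 1211 ± 15.7 normalized reads per kb with T3 and 1288 ± 55.7 with vehicle (SD, n = 3 each). Unlike the ratio, this sum depends on the scaling between libraries. The ratio of Ncor1 to Hdac3 overlapped between groups, with a log2 mean of 1.55 ± 0.06 with T3 and 1.57 ± 0.12 with vehicle (SD, n = 3 each; exact permutation test, two-sided p = 0.9, adjusted p = 0.9).

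**Figure D2:**
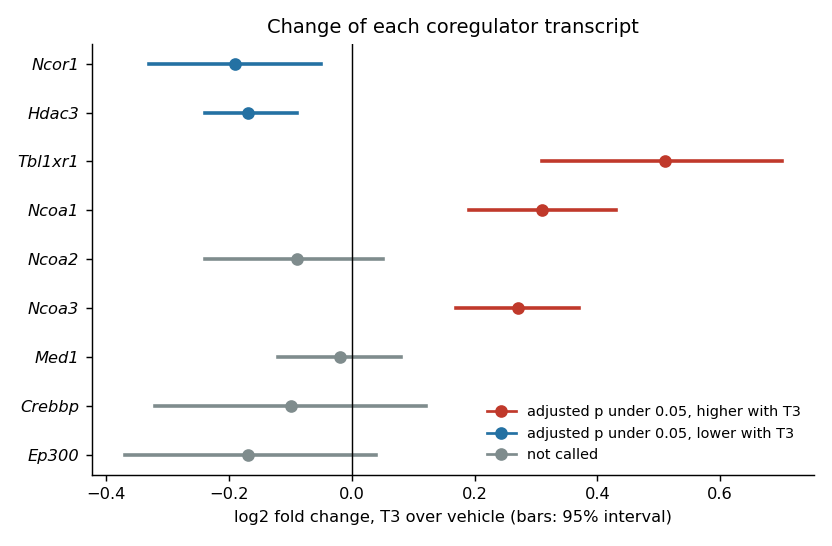
Log2 fold change of T3 over vehicle for the 9 genes with its 95% interval from limma, coloured by call. Tbl1xr1, Ncoa1 and Ncoa3 lie above 0, Ncor1 and Hdac3 lie below it, and the intervals of Ncoa2, Med1, Crebbp and Ep300 include 0.

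Among the p160 coactivators, Ncoa1 and Ncoa3 rose and Ncoa2 was not called. Ncoa1, also known as SRC-1, the founding member of the family (gene ID 17977, chromosome 12, 4247362 to 4477182, minus strand, 23 exons), had 2591, 2668 and 2366 normalized reads with T3, against 2144, 2009 and 1990 with vehicle. The groups did not overlap, and T3 replicate 3 was the lowest T3 library. Its log2 fold change was 0.31 ± 0.05 SE (limma, adjusted p = 0.00126).

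Ncoa3, also known as SRC-3 or AIB1, which was first found amplified in human breast cancer (gene ID 17979, chromosome 2, 165992637 to 166073242, plus strand, 23 exons), had 1874, 1766 and 1786 normalized reads with T3, against 1526, 1461 and 1522 with vehicle. Again every T3 library was higher than every vehicle library. Its log2 fold change was 0.27 ± 0.04 SE (limma, adjusted p = 0.000941). Ncoa2, also known as GRIP1 or TIF2 (gene ID 17978, chromosome 1, 13139159 to 13374083, minus strand, 23 exons), had 2472, 2454 and 2601 normalized reads with T3, against 2976, 2540 and 2536 with vehicle. The groups overlapped, and vehicle replicate 1 stood above the rest. For Ncoa2 the log2 fold change was -0.09, with a 95% interval of -0.24 to 0.05 (limma, adjusted p = 0.261).

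Within libraries, the ratios of Ncoa1 and of Ncoa3 to Ncoa2 were higher in every T3 library than in any vehicle library, and the ratio of Ncoa1 to Ncoa3 overlapped between the groups. The log2 ratio of Ncoa1 to Ncoa2 was 0.07, 0.12 and -0.14 with T3, against -0.47, -0.34 and -0.35 with vehicle, so the groups did not overlap. The log2 ratio of Ncoa3 to Ncoa2 was -0.40, -0.47 and -0.54 with T3, against -0.96, -0.80 and -0.74 with vehicle, again without overlap. The exact permutation test, two-sided, gave p = 0.1 for each of these ratios, the smallest possible, with adjusted p = 0.2. Ncoa1 and Ncoa3 were each higher without overlap on their own, and both ratios share Ncoa2, which was not called. The separation of these ratios is thus no separate result. The log2 ratio of Ncoa1 to Ncoa3 averaged 0.49 ± 0.10 with T3 and 0.45 ± 0.05 with vehicle (SD, n = 3 each; exact permutation test, two-sided p = 0.6, adjusted p = 0.72).

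Per kb of exon, the 3 p160 genes together stood at 892 ± 14 normalized reads per kb with T3 and 806 ± 44.9 with vehicle (SD, n = 3 each). The libraries had 903, 897 and 877 with T3, against 858, 777 and 782 with vehicle. This sum, unlike the shares, depends on the scaling between libraries. With equal column totals the log2 fold changes of Ncoa1, Ncoa2 and Ncoa3 were 0.24, -0.16 and 0.20, in place of 0.31, -0.09 and 0.27. Ncoa2 held the largest share with vehicle and Ncoa1 with T3. Ncoa1 made up 38.9% of the sum with T3 and 34.7% with vehicle. Ncoa2 made up 34.2% with T3 and 40.6% with vehicle, and Ncoa3 26.9% with T3 and 24.8% with vehicle. Set against Ncor1 per kb, a ratio chosen after the values were seen, the p160 sum was 1.06, 1.09 and 0.967 times Ncor1 in the T3 libraries, against 0.798, 0.847 and 0.814 in the vehicle libraries.

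**Figure D3:**
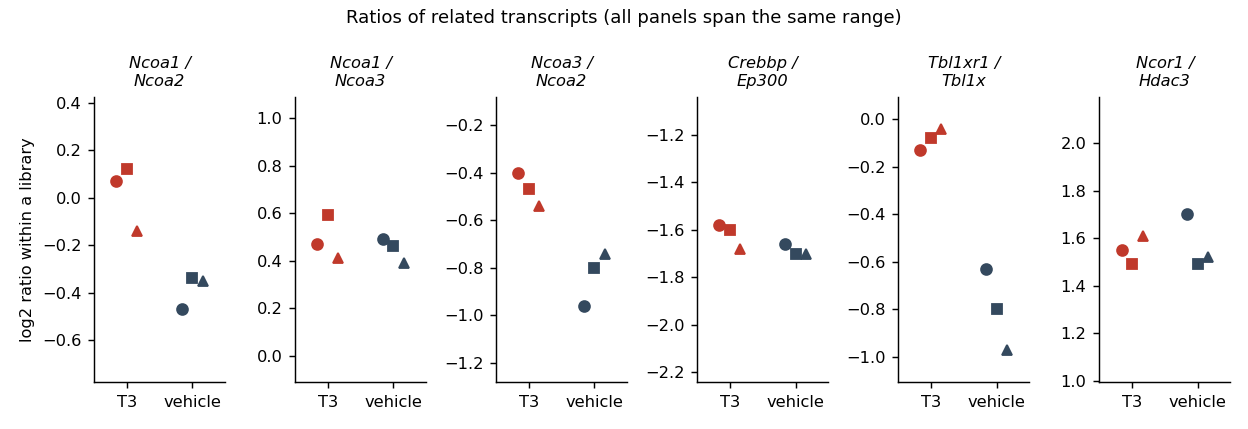
Log2 ratios of paired transcripts within each library, T3 left and vehicle right, with one point per library. Tbl1xr1 to Tbl1x, Ncoa1 to Ncoa2 and Ncoa3 to Ncoa2 are higher in all T3 libraries than in any vehicle library, whereas the other 3 ratios overlap.

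The acetyltransferase genes were not called. Ep300 (gene ID 328572, chromosome 15, 81586214 to 81652077, plus strand, 31 exons) had 3757, 3622 and 4067 normalized reads with T3, against 5038, 3877 and 3996 with vehicle. The groups overlapped, and vehicle replicate 1 was far above the other vehicle libraries. The log2 fold change was -0.17, with a 95% interval of -0.37 to 0.04 (limma, adjusted p = 0.165), and -0.05 without vehicle replicate 1. Crebbp (gene ID 12914, chromosome 16, 4084048 to 4213404, minus strand, 31 exons) had 1258, 1195 and 1265 normalized reads with T3, against 1593, 1191 and 1233 with vehicle. The same vehicle library stood apart. The log2 fold change of Crebbp was -0.10, with a 95% interval of -0.32 to 0.12 (limma, adjusted p = 0.435), and 0.03 without vehicle replicate 1. The log2 ratio of Crebbp to Ep300 averaged -1.62 ± 0.06 with T3 and -1.69 ± 0.02 with vehicle (SD, n = 3 each), and the groups overlapped (exact permutation test, two-sided p = 0.2, adjusted p = 0.3).

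Med1, the Mediator subunit that contacts liganded nuclear receptors through LXXLL motifs (gene ID 19014, chromosome 11, 98152154 to 98193293, minus strand, 19 exons), was the steadiest of the 9 in its group means. It had 3186, 3506 and 3365 normalized reads with T3, against 3390, 3353 and 3459 with vehicle. The T3 libraries lay on both sides of the vehicle range. For Med1 the log2 fold change was -0.02, with a 95% interval of -0.12 to 0.08 (limma, adjusted p = 0.719), which on the linear scale runs from 0.92 to 1.05 of the vehicle level.

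Vehicle replicate 1 was the highest vehicle library for 7 of the 9 genes, where it was the highest vehicle library for 35.1% of all genes tested. In Ncor1, Ncoa2, Crebbp and Ep300 it was the highest of all 6 libraries. Without it Tbl1xr1, Ncoa1, Ncoa3 and Hdac3 were still called, with log2 fold changes of 0.62, 0.34, 0.28 and -0.17. Ncoa2 then stood at -0.02 and was not called. The 3 rises were called with each of the 6 libraries left out.

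**Figure D4:**
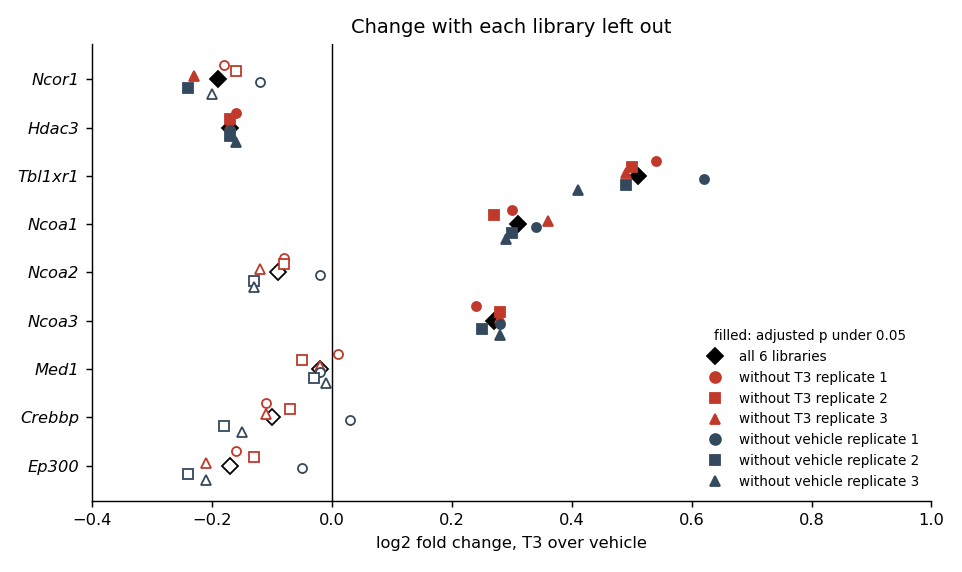
Log2 fold change of T3 over vehicle for the 9 genes with all 6 libraries (diamonds) and with each library left out, filled where the adjusted p is under 0.05. Points of Tbl1xr1, Ncoa1, Ncoa3 and Hdac3 are filled throughout, those of Ncor1 in 2 of 6 cases, and those of Ncoa2, Med1, Crebbp and Ep300 in none.

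Levels can be compared between genes only per exon length. On the RPKM scale, normalized reads per kb of exon after each column is brought to the same total, Hdac3 was the highest, at 54.9 ± 0.976 with T3 and 64.5 ± 0.495 with vehicle, followed by Ncor1 at 28.9 ± 1.59 and 34.6 ± 2.64 (SD, n = 3 each). In T3 libraries the order went on with Med1 (14.8 ± 0.743), Ep300 (14.6 ± 0.991), Ncoa1 (11.6 ± 0.633), Ncoa2 (10.3 ± 0.413), Tbl1xr1 (8.58 ± 0.368), Ncoa3 (8.06 ± 0.23) and Crebbp (5.54 ± 0.198). Among these neighbours the library ranges overlapped for Med1 and Ep300 and for Tbl1xr1 and Ncoa3. In vehicle libraries the order was Ep300 (17.3 ± 2.47), Med1 (15.7 ± 0.186), Ncoa2 (11.5 ± 1.03), Ncoa1 (9.82 ± 0.368), Ncoa3 (7.01 ± 0.115), Tbl1xr1 (6.36 ± 0.905) and Crebbp (6.26 ± 1.00). Here the ranges overlapped for Ep300 and Med1, for Ncoa3 and Tbl1xr1 and for Tbl1xr1 and Crebbp. Ncoa1 and Ncoa2 thus exchanged places between the groups. Over all 6 libraries Hdac3 stood at percentile 89.1 of the genes tested by this measure and Crebbp at percentile 36.7. RPKM serves here to order genes within a group, not to compare T3 with vehicle. The T3 columns had the larger totals, so equal totals lower T3 values against vehicle ones. With equal column totals the log2 fold change was -0.23 for Hdac3 and -0.26 for Ncor1, in place of -0.17 and -0.19. On RPKM the Med1 groups did not overlap, with at most 15.5 with T3 and at least 15.6 with vehicle.

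**Figure D5:**
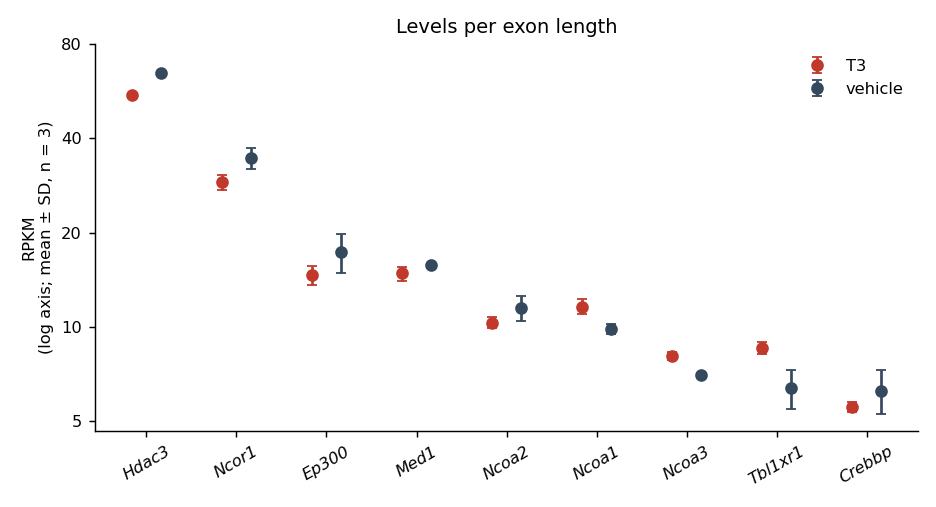
RPKM, normalized reads per kb of exon after each column is brought to the same total (log axis, mean ± SD, n = 3) for the 9 genes, T3 left and vehicle right, in the order of the vehicle level. Hdac3 and Ncor1 are the highest in both groups, and Ncoa1 is above Ncoa2 with T3 and below it with vehicle. This scale lowers T3 points against vehicle points, as the T3 columns had the larger totals.

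The wider cofactor lists held calls in both directions, to be read beside the 44.8% of all genes tested that were called, 24% higher and 20.8% lower. In a list of 6 genes of the NCoR complex, which includes Ncor1, Hdac3 and Tbl1xr1, 1 rose and 3 fell, 66.7% of the list, with a median log2 fold change of -0.16, beside -0.009 over all genes tested. The count of lower genes in this list was 2 with no filter on low values and with no variance trend. It was also 2 without T3 replicate 1, T3 replicate 2, vehicle replicate 1 or vehicle replicate 3. It was 4 with each of the 4 scalings, with robust moderation, and without T3 replicate 3 or vehicle replicate 2. In a list of 10 p160 and acetyltransferase genes, 5 of them members of the group above, 3 rose and 3 fell, 60% of the list, with a median of -0.10. Kat2b, the acetyltransferase PCAF, had 1229, 1193 and 1131 normalized reads with T3, against 882, 815 and 729 with vehicle, and rose 1.47-fold (limma, adjusted p = 0.000206). The arginine methyltransferase genes Carm1 and Prmt1, whose products modify histones beside p160 proteins, fell to 0.860 and 0.863 of the vehicle level (limma, adjusted p = 0.00178 and 0.00321). In all 3 genes the groups were apart.

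Of 32 Mediator genes, 4 rose and 6 fell, 31.2% of the list beside 44.8% of all genes tested, and the median log2 fold change was 0.01. Med22 fell to 0.785 and Med23 to 0.853 of the vehicle level, and Med30 rose 1.18-fold (limma, adjusted p = 0.00152, 0.00172 and 0.00975). The Mediator counts changed when single libraries were left out. They were 2 higher and 3 lower without T3 replicate 1, 4 and 2 without T3 replicate 2, and 3 lower without vehicle replicate 3, and 1 higher with upper-quartile scaling or equal column totals.

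Of 28 other coactivator genes, 3 rose and 7 fell, 35.7% of the list beside 44.8% of all genes tested, with a median log2 fold change of -0.07. Ppargc1a, the inducible coactivator of mitochondrial genes, had 1606, 1717 and 1386 normalized reads with T3, against 287, 351 and 269 with vehicle, a 5.19-fold rise (limma, adjusted p = 2.07e-07) beside at most 1.42-fold among the 9 cofactors. Trip4, the ASC-1 coactivator gene, rose 1.24-fold, and Smarcc1, a subunit of the SWI/SNF remodelling complex, fell to 0.707 of the vehicle level (limma, adjusted p = 0.00142 and 4.64e-05). The count of lower genes in this list was 4, 2 and 3 without T3 replicate 1, T3 replicate 2 and vehicle replicate 3, and 11 with upper-quartile scaling or equal column totals.

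Of 23 other corepressor genes, 22 were tested, of which 3 rose and 6 fell, 40.9% beside 44.8% of all genes tested, with a median log2 fold change of 0.01. Rbbp7, a histone-binding subunit of deacetylase complexes, fell to 0.769, Sin3a, the scaffold of another deacetylase complex, to 0.868, and Hr, a corepressor of thyroid hormone receptors, to 0.642 of the vehicle level (limma, adjusted p = 6.21e-05, 0.00333 and 0.00333). Hr had 183, 162 and 227 normalized reads with T3, against 298, 265 and 324 with vehicle. The counts were 1 higher and 3 lower without T3 replicate 1 and also without T3 replicate 2, and 1 higher without vehicle replicate 2, with upper-quartile scaling or with equal column totals.

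For scale, 4 genes of a hormone response list rose by more than any of the 9. That list was chosen with earlier results of these data known, so these rises are not an independent benchmark. Klf9 rose 6.08-fold, Bcl3 4.10-fold, Dio1 3.21-fold and the transporter gene Slc16a10 2.56-fold, each with no overlap between the groups. The receptor gene Thra had 1514, 1616 and 1535 normalized reads with T3, against 2480, 2571 and 2694 with vehicle, and fell to 0.603 of the vehicle level (limma, adjusted p = 1.84e-06). Thrb, the other receptor gene, had 1399, 1413 and 1525 with T3, against 1646, 1553 and 1519 with vehicle, and was not called (adjusted p = 0.0848, but 0.0174 with upper-quartile scaling, 0.0169 with equal column totals and 0.0297 without T3 replicate 3).

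The genes whose profile over the 6 libraries was nearest to each called cofactor were found by the root mean square difference of centred log2(value + 1) profiles. For Ncor1 these were Adnp (0.0163), Nfia (0.0180) and Dicer1 (0.0213). All 3 had their highest value in vehicle replicate 1, as Ncor1 does. They were chosen for likeness to the Ncor1 profile, so neither this shared peak nor calls that change like its call are a separate result. Adnp had 3997, 3926 and 4263 normalized reads with T3, against 4986, 4400 and 4583 with vehicle. Adnp was called (adjusted p = 0.0139), but not without T3 replicate 1 (0.057) or T3 replicate 2 (0.0536), nor with no variance trend (0.0552). Nfia (adjusted p = 0.03) was not called without T3 replicate 1 (0.107), T3 replicate 2 (0.0912) or vehicle replicate 1 (0.0866), nor with no variance trend (0.0698). Dicer1 (adjusted p = 0.0625) was not called, but it was without T3 replicate 3 (0.0365) or vehicle replicate 2 (0.0343), with upper-quartile scaling (0.0127), with equal column totals (0.0116) and with robust moderation (0.049). For Hdac3 the nearest were Ergic1 (0.0085), Eif3l (0.0090) and Hnrnpm (0.0121), for Ncoa1 they were Abhd2 (0.0204), Cd47 (0.0215) and Tgfbr2 (0.0228), and for Ncoa3 they were Slc35e1 (0.0155), Fam102a (0.0181) and Myrfl (0.0183). Tbl1xr1 had no gene as close, the nearest being Myom3 (0.0567), Cflar (0.0644) and Rnf24 (0.0648). Myom3 was low, at 52, 55 and 55 normalized reads with T3, against 48, 36 and 35 with vehicle. It was not called (limma, adjusted p = 0.065), but it was with no variance trend (0.0354) and without vehicle replicate 1 (0.0293). Rnf24 had 120, 127 and 130 with T3, against 102, 93 and 86 with vehicle. It was called (limma, adjusted p = 0.0155), but not by the authors' deposited comparison (0.0769). Cflar, an inhibitor of caspase activation, had 1506, 1598 and 1566 normalized reads with T3, against 1129, 1057 and 934 with vehicle.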

How the data were processed

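RNA was sequenced from 3 T3 and 3 vehicle libraries, directional per the labels' protocols. The submitters' processing notes name STAR, Subread and DESeq2 but no versions. The strand setting of the read counter was not given in the sources used here. Column names give the build as mm10 (GRCm38), per the file headers. Each sample column deposited by the authors is a normalized score: reads per gene divided by a library factor, then rounded to whole numbers. The deposited overall mean lies within 0.833 of the mean over those columns. The authors' deposited table also gives a log2 fold change with its standard error, a p-value and an adjusted p-value per gene, and exon length.

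Values were tested with limma 3.58.1 (R 4.3.3) on log2(value + 1), with a variance trend and no replicate block; statmod 1.5.0 served the robust alternative. The filter asked for 10 or more normalized reads in 3 or more of the 6 libraries, which left 13052 genes, and Benjamini-Hochberg adjustment ran over all of them. The log2(value + 1) scale understates changes of low genes. The depth behind the rounded values was not recovered, so no counting interval is given. RPKM was computed from the deposited values, exon length and column total. Ratios within a library were tested with exact permutation in SciPy 1.17.1. Promoter windows are from RefSeq (GRCm38.p6). Genes named beside the 9 are up to 3 called members of each context list by smallest p-value, all 6 genes of the hormone response list, and the 3 nearest profiles of each called cofactor, leaving out unnamed gene models. The members and lists were chosen with earlier results of these data known. Libraries of the same replicate number did not deviate together, with correlations of -0.07, 0.028 and -0.057, so the number was not taken as a pairing.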

Additional observations from a re-analysis of the deposited data

How the results depend on the processing

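The results were recomputed with 4 scalings, 2 filters, 2 pseudocounts, 2 variance models, a replicate block, the authors' deposited comparison and each library left out. The 3 rises and the fall of Hdac3 were called under all 18. The count of lower genes among the 9 was 1 in place of 2 with no filter on low values and with no variance trend, and 1 to 2 with a library left out, each time through Ncor1 (adjusted p = 0.0582 with no filter and 0.0914 with no trend); the cause was not tested. With a replicate block the 9 genes kept 3 calls higher and 2 lower, 5405 genes were called in place of 5851 across the table, and the block changed no call of a gene named in the text. Upper-quartile scaling gave 2497 genes higher and 3728 lower, and equal column totals 2432 and 3855, in place of 3135 and 2716, with shifts of the median log2 fold change to -0.067 and -0.075. With a library left out, 4497 to 5895 genes were called. Uncalled values changed sign without single libraries: Med1 ranged from -0.05 to 0.01, its highest without T3 replicate 1, and Crebbp from -0.18 to 0.03, the highest without vehicle replicate 1. The log2 difference of the Ncoa1 to Ncoa3 ratio ranged from -0.01 (without T3 replicate 2) to 0.09, and that of the Ncor1 to Hdac3 ratio from -0.06 to 0.04 (without vehicle replicate 1; 0.01 without T3 replicate 2). In the context lists, with no variance trend the other coactivators had 3 genes lower in place of 7, and the other corepressors 1 higher and 3 lower in place of 3 and 6. By the authors' deposited table, the Mediator list had 6 called genes in place of 10, 2 of them higher in place of 4. The order of levels was the same for all 9 genes per kb without scaling to the column total. With 3 libraries a group, the exact tests of ratios cannot go below p = 0.1.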
